A study of Mus musculus with 45 samples.

Results

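The response of Uhrf1hepKO mouse liver to partial hepatectomy at 48 h was measured by setting 3 KO 48 h libraries against 3 KO baseline libraries, which are 6 of the 45 poly(A) RNA libraries of the series. The 6 libraries were chosen by their labels and not by any measured value. The KO 48 h livers came from C57Bl/6 mice of the genotype Uhrf1hepKO, 48 h after an operation that removed 2/3 of the liver, and the KO baseline livers came from C57Bl/6 mice of the same genotype labelled as baseline. Mice were 8 to 12 weeks old at surgery and ate a normal diet. By its name the allele removes Uhrf1 from hepatocytes, and the driver of the deletion is not given in the sources used here. Both groups carry the deletion, so the contrast holds genotype constant and compares livers 48 h after surgery with baseline livers. No group of the series is labelled as sham-operated. The loss of liver tissue therefore cannot be told apart from other effects of the operation. The age and hour of collection of the baseline mice are not stated, and the count columns of the baseline libraries carry a prefix naming 40 hrs whose meaning is not given. Wild-type (WT) libraries, 2 at 48 h and 3 at baseline, were used to test whether the change differed between genotypes and to set the level of Uhrf1 at 48 h beside that in WT livers.

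After part of a rodent liver is removed, the remaining hepatocytes, which are normally quiescent, re-enter the cell cycle while still supporting the animal's metabolism. They pass through a priming phase with acute phase signalling, induce D cyclins, license and copy their DNA, and then divide. UHRF1 recognises hemimethylated DNA behind the replication fork and recruits DNMT1, the maintenance DNA methyltransferase. Genes of DNA licensing are classically controlled by E2F factors, and genes of mitosis by the MuvB complex with B-MYB and FOXM1, which acts through CHR elements and CCAAT boxes near the start of transcription.

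Promoters are shown for 3 genes of mitosis and 3 of licensing, because these groups carry the main increases and are the classic targets of these elements. They are the called members with the largest rises whose promoter held a match, after some genes were left out of the choice whatever their rise. The promoter table matched 14 of the 22 tested mitotic cyclin and kinase genes and 14 of the 20 tested licensing genes. Each line gives the 250 bases before the RefSeq start of the gene (assembly GRCm38.p6), 5′ to 3′ on the strand of the gene. Capitals mark exact matches, on either strand, of the CHR letters TTTGAA, of CCAAT, and of the E2F letters TTTCCCGC or TTTGGCGC.
Ccnb1, chr13:100786487-100786736, minus strand: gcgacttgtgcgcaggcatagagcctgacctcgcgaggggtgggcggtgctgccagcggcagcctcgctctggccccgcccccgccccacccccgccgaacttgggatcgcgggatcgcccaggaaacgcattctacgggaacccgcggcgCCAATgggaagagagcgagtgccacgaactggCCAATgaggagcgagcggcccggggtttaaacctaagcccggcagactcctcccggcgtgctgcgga
Plk1, chr7:122159185-122159434, plus strand: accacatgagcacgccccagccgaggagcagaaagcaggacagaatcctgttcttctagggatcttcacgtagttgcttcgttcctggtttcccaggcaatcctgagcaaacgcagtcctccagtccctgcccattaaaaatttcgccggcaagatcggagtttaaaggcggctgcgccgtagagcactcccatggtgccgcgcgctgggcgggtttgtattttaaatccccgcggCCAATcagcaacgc
Ccnb2, chr9:70421555-70421804, minus strand: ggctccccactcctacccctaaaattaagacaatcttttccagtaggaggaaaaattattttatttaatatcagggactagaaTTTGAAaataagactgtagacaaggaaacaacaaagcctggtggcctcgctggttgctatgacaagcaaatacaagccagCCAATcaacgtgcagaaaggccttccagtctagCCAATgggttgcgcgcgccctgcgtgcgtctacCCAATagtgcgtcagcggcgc
Orc1, chr4:108579204-108579453, plus strand: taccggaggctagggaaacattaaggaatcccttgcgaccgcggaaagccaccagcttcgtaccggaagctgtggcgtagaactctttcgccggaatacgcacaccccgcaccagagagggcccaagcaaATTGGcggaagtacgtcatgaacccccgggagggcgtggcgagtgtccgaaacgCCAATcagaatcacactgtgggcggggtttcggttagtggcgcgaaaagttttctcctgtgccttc
Mcm5, chr8:75109259-75109508, plus strand: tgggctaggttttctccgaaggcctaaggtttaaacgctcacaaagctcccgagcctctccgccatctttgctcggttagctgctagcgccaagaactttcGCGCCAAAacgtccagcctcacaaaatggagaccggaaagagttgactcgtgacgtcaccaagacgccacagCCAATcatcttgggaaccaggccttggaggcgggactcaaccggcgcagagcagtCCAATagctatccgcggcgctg
Cdc6, chr11:98907901-98908150, plus strand: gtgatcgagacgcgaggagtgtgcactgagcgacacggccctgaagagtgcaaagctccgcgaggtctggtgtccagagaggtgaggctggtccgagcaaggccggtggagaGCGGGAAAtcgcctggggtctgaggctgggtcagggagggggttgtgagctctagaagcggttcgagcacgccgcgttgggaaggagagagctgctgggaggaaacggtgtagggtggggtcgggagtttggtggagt

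In these windows Ccnb2 held 1 CHR match and 3 CCAAT matches, Ccnb1 held 2 CCAAT matches and Plk1 held 1. Orc1 held 2 CCAAT matches, Mcm5 held 2 together with 1 E2F match, and Cdc6 held 1 E2F match. Among the called members of the mitotic cyclin and kinase list that matched the promoter table, 12 of 13 held CCAAT (92.3%) and 6 of 13 held the CHR letters (46.2%), beside 40.6% and 13.4% of the 10554 tested genes that matched and 37.5% and 18.3% of the 27025 genes of the table. Among the called licensing genes that matched, 10 of 14 held CCAAT (71.4%) and 5 of 14 held an E2F match (35.7%), beside 40.6% and 2.80% of the tested genes and 37.5% and 1.51% of the genes of the table. None of the 13 mitotic genes held either E2F string, which says only that these letters are not in these windows. The matches are a description of the sequence and were not tested.

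Total counts were 17.09 to 20.68 M (M, 1000000 counts) at 48 h and 13.46 to 18.6 M at baseline, and libraries of the same group differed by more than sampling noise. Values below are CPM, counts scaled to a library of 1000000, with TMM scaling, ± is the SD over 3 libraries, and fold changes are log2 values ± SE from edgeR's quasi-likelihood test with Benjamini-Hochberg adjustment over all 14090 genes tested. The SE is the absolute log2 change over the square root of that test's F value. Whether each library is a separate animal is not stated in the labels. The p-values therefore describe spread among libraries within groups, pooled over all 45 libraries of the fit, which may be technical. Of the genes tested, 5072 (36.0%) differed between KO 48 h and KO baseline livers at an adjusted p under 0.05, 2678 higher (19.0%) and 2394 lower (17.0%). Counts of calls in the lists below are to be read beside these shares. A list near them was called about as often as all genes. A change of at least 2-fold was called higher for 1163 genes (8.25%) and lower for 936 genes (6.64%). The groups did not overlap for 49.0% of genes (24.7% higher, 24.4% lower). Higher genes made up 52.8% of the calls, against 46.7% with upper quartile scaling, 69.4% with library totals alone and 75.2% with limma on log2(FPKM + 1). The median log2 change of all genes was -0.02 with TMM scaling, against 0.12 on log2(FPKM + 1), so small shifts in either direction depend on the scaling. In called genes whose groups did not overlap and whose average level over the 6 libraries was log2 CPM 1 or more, the largest increases were led by Ccnb1, Hmmr and Cdc20 and the largest decreases by Rgs16, Hcn3 and Serpina12, predicted genes and pseudogenes left aside.

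**Figure D1:**
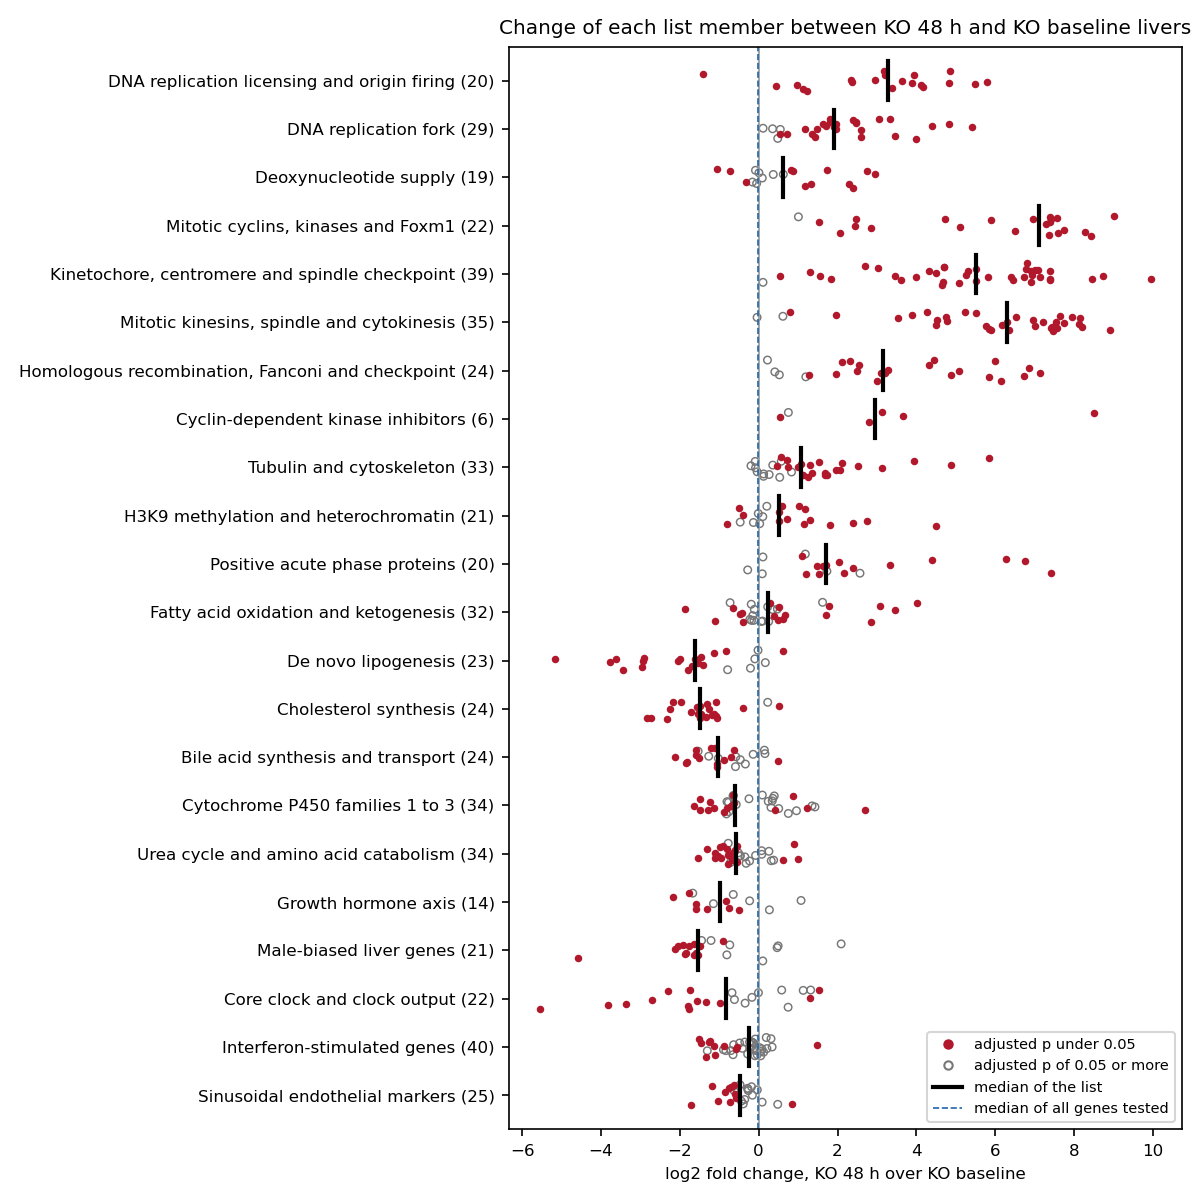
Log2 fold change between KO 48 h and KO baseline livers (horizontal axis) of each tested member of 22 gene lists, with the number of members in brackets. Filled points passed an adjusted p under 0.05, open points did not, black bars are list medians and the dashed line is the median of all genes tested; the 3 mitotic lists centre between 5.51 and 7.12, and lipogenesis and cholesterol synthesis at -1.63 and -1.48.

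Uhrf1 itself (chr17:56303321-56323486, plus strand) stood at 7.37, 3.88 and 3.69 CPM in the KO 48 h libraries and at 0, 0.247 and 0.103 CPM in the KO baseline libraries. All 3 libraries at 48 h lay above all 3 at baseline, and the log2 change was 5.29 ± 0.86 (adjusted p = 9.98e-06). In WT livers Uhrf1 stood at 19.2 and 19.9 CPM at 48 h and at 0.219, 0.644 and 0.382 CPM at baseline. The 3 KO 48 h libraries were all below both WT 48 h libraries, although the contrast of the KO 48 h with the WT 48 h level, log2 -1.97 ± 0.52, did not pass over all genes (adjusted p = 0.231). Which part of the gene the allele removes is not given in the sources used here, so its counts are no measure of the deletion, and the part of cells other than hepatocytes in them was not tested.

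Genes that license origins for replication rose as a group: 19 of 20 tested members were called higher and 1 lower, beside 19.0% and 17.0% of all genes, with a median log2 change of 3.29. Mcm5, a subunit of the replicative helicase, had 80.1, 48.9 and 59.8 CPM in the KO 48 h libraries and 1.83, 2.29 and 2.37 CPM in the KO baseline libraries. The groups were far apart, with a log2 change of 4.85 ± 0.51 (adjusted p = 5.86e-09). Mcm6 had 91.1, 35.4 and 53.6 CPM at 48 h against 3.45, 2.72 and 4.22 CPM at baseline (log2 4.11 ± 0.47), and Mcm2 and Mcm3 rose by log2 3.64 ± 0.42 and 3.17 ± 0.39. Gins2, a part of the helicase complex, averaged 11.3 ± 1.13 CPM at 48 h against 0.245 ± 0.0378 CPM at baseline, and Cdc45, its partner, 12.9 ± 6.04 against 0.836 ± 0.196 CPM. The loading factors were less even among the KO 48 h libraries. Cdc6 had 17.0, 3.00 and 2.77 CPM at 48 h against 0.422, 0.185 and 0.206 CPM at baseline, and Cdt1 33.1, 10.1 and 10.6 against 2.67, 1.67 and 2.57 CPM, so the first KO 48 h library held the highest value of both. Orc1, the largest subunit of the origin recognition complex, had 102 counts over the 3 KO 48 h libraries and 1 count over the 3 KO baseline libraries, a ratio of 77.2 with an exact interval from counting error alone of 13.6 to 3079.

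Mcm10, which helps to activate the helicase, was the exception in the licensing list. It had 33.7, 15.9 and 16.6 CPM in the KO 48 h libraries and 80.3, 28.7 and 68.6 CPM in the KO baseline libraries. The ranges overlapped, and the log2 change was -1.42 ± 0.33 (adjusted p = 8.79e-04); the call was lost when the 6 libraries were fitted alone without a block (adjusted p = 0.0522).

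At the replication fork, 25 of 29 tested genes were called higher and none lower, with a median log2 change of 1.90. Pcna, the sliding clamp, had 83.9, 42.9 and 58.2 CPM at 48 h against 18.9, 20.3 and 20.8 CPM at baseline, a log2 change of 1.62 ± 0.22. Lig1, the ligase that joins Okazaki fragments, averaged 28.5 ± 7.33 CPM at 48 h and 1.80 ± 0.358 CPM at baseline. The histone chaperones moved further than the clamp, with log2 changes of 5.42 ± 0.48 for Asf1b and 4.41 ± 0.37 for Chaf1a, the large subunit of CAF-1. Supply of deoxynucleotides rose more selectively, with 9 of 19 tested members called higher and 3 lower. Rrm2, the regulated subunit of ribonucleotide reductase, had 106, 89.0 and 93.3 CPM in the KO 48 h libraries and 11.7, 11.6 and 13.7 CPM in the KO baseline libraries (log2 2.96 ± 0.29). Rrm1 rose by log2 2.74 ± 0.22, Tyms, the thymidylate synthase, by 2.30 ± 0.14, and Mthfd2, a mitochondrial folate enzyme, by 2.40 ± 0.25. Shmt1, a cytosolic serine hydroxymethyltransferase, fell to 117 ± 8.83 CPM at 48 h, against 241 ± 10.6 CPM at baseline (log2 -1.05 ± 0.12).

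The 3 lists of mitotic genes had the highest medians of all lists. Of 22 tested mitotic cyclins, kinases and regulators, 21 were called higher and none lower, and their median log2 change of 7.12 compares with -0.02 over all genes. Ccnb1, cyclin B1, had 103, 153 and 129 CPM in the KO 48 h libraries and 0.281, 0.247 and 0.206 CPM in the KO baseline libraries. The groups were far apart, with a log2 change of 9.01 ± 0.70 (adjusted p = 6.66e-12). Cdk1, its partner kinase, had 127, 177 and 143 CPM at 48 h against 1.06, 0.865 and 0.772 CPM at baseline. Plk1, polo-like kinase 1, had 72.8, 104 and 76.1 CPM at 48 h against 0.0703, 0.124 and 0.463 CPM at baseline. Foxm1, the transcription factor of the late cell cycle, averaged 45.4 ± 4.68 CPM at 48 h and 0.269 ± 0.109 CPM at baseline (log2 7.40 ± 0.48). Mki67, the proliferation antigen Ki-67, averaged 200.5 ± 31.1 and 1.22 ± 0.501 CPM. In each of these genes the second KO 48 h library held the highest value, and every KO 48 h value lay above every baseline value.

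Chromosome segregation moved with the kinases. Of 39 tested kinetochore, centromere and checkpoint genes, 38 were called higher and none lower (median log2 5.51), and of 35 genes for mitotic kinesins, spindle and cytokinesis 33 were called higher and none lower (median 6.31). Cdc20, which activates the anaphase-promoting complex, had 202, 235 and 185 CPM in the KO 48 h libraries and 0.281, 0.494 and 0.618 CPM in the KO baseline libraries. The baseline values were all under 1 CPM, and the log2 change was 8.74 ± 0.68 (adjusted p = 7.61e-12). Ube2c, the ubiquitin-conjugating enzyme of the same complex, averaged 122 ± 27.3 CPM at 48 h and 0.347 ± 0.0876 CPM at baseline. Aurkb, the kinase of the chromosomal passenger complex, rose by log2 7.29 ± 0.42 and Birc5, its partner survivin, by 6.78 ± 0.45. Ska1, a microtubule-binding kinetochore protein, had no count in the 3 KO baseline libraries and 488 counts in the 3 KO 48 h libraries, which is at least 123-fold higher when the baseline is set to a floor of 3 counts over the group. Prc1, which bundles the midzone of the spindle, rose by log2 7.74 ± 0.42, and Anln, the anillin of the cleavage furrow, by 6.34 ± 0.37. Stmn1, a tubulin-binding protein, had 185, 209.7 and 225 CPM at 48 h against 2.88, 4.14 and 3.76 CPM at baseline.

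**Figure D2:**
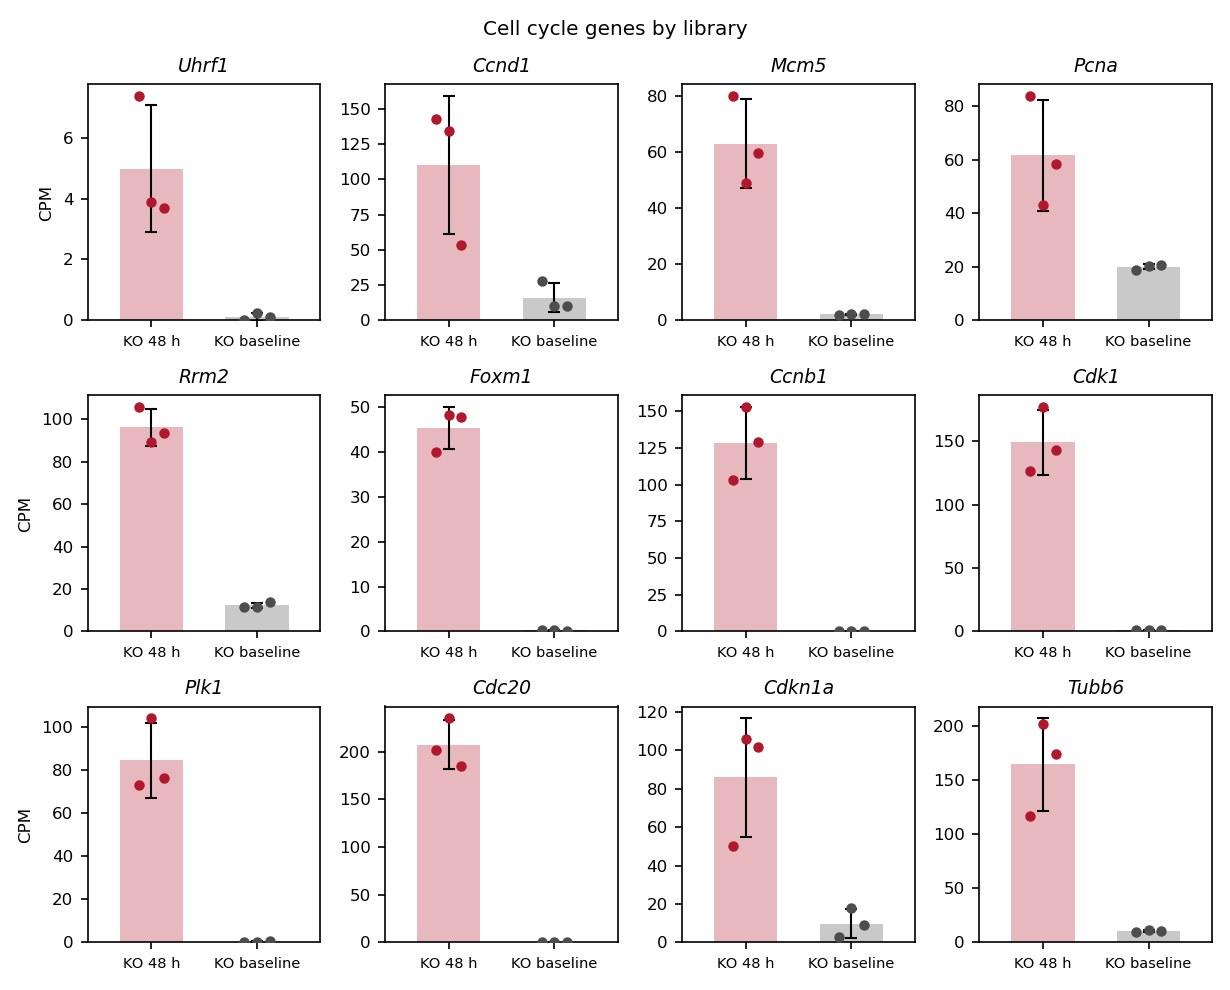
CPM of 12 cell cycle genes in each of 3 KO 48 h libraries (red) and 3 KO baseline libraries (grey), with bars at the mean and error bars of 1 SD. In each panel every KO 48 h point lies above every KO baseline point, and for mitotic genes such as Ccnb1, Plk1 and Cdc20 the baseline points lie at or near 0.

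Tubulins and other cytoskeletal genes rose with the spindle genes, with 22 of 33 tested members called higher and none lower (median log2 1.07). Tubb6 averaged 165 ± 43.2 CPM at 48 h and 10.7 ± 0.805 CPM at baseline, and Tubb4b 541 ± 75.3 and 93.8 ± 13.7 CPM. Tuba1b rose by log2 3.13 ± 0.23 and Tuba1c by 1.95 ± 0.21, while Vim, an intermediate filament of mesenchymal cells, averaged 20.2 ± 8.44 CPM at 48 h and 15.8 ± 4.20 CPM at baseline and was not called (adjusted p = 0.431).

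Repair and checkpoint genes of homologous recombination and the Fanconi pathway were higher for 20 of 24 tested members and lower for none, with a median log2 change of 3.15. The entry machinery of the cycle moved less. Of 12 D and E cyclins and partner kinases, 8 were called higher and none lower, with a median of 0.65. Ccnd1, cyclin D1, had 143, 134 and 53.8 CPM in the KO 48 h libraries and 27.9, 10.3 and 10.3 CPM in the KO baseline libraries. The third KO 48 h library was the lowest of its group and still lay above the baseline range, and the log2 change was 2.78 ± 0.52 (adjusted p = 8.63e-05). Ccne1, cyclin E1, had 13.7, 6.17 and 6.61 CPM at 48 h against 1.62, 0.433 and 0.721 CPM at baseline. Of 17 E2F and retinoblastoma family genes, 11 were called higher and 1 lower; E2f1 rose by log2 2.21 ± 0.29, E2f2 by 3.13 ± 0.44 and Rbl1, the pocket protein p107, by 2.97 ± 0.27.

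Inhibitors of cyclin-dependent kinases were higher as well, with 5 of 6 tested members called higher and none lower; Cdkn2a and Cdkn2b had too few counts to be tested. Cdkn1a, which encodes p21, had 50.4, 106 and 102 CPM in the KO 48 h libraries and 2.60, 17.7 and 9.01 CPM in the KO baseline libraries. Both groups were spread widely, without overlap. The log2 change was 3.13 ± 0.79 (adjusted p = 0.00239). Cdkn2c, which encodes p18, averaged 44.5 ± 5.66 CPM at 48 h and 3.51 ± 0.694 CPM at baseline, and Cdkn3, a phosphatase that acts on CDK1 and CDK2, rose by log2 8.52 ± 0.69. Cdkn1b, which encodes p27, rose by 0.53 ± 0.14. Other targets of p53 moved both ways, with 13 of 27 called higher and 4 lower. Eda2r, a receptor of the TNF family, and Gtse1, a G2 and S phase protein, rose by log2 4.53 ± 0.59 and 6.10 ± 0.37, whereas Sesn1, sestrin 1, fell (log2 -0.97 ± 0.18) and Gdf15, a stress cytokine, had 10.4, 10.1 and 11.6 CPM at 48 h against 34.7, 123 and 32.3 CPM at baseline. The second KO baseline library set much of the size of the Gdf15 change, which was log2 -2.57 ± 0.64 with it and -1.64 without it.

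Early response genes were mixed at 48 h, with 6 of 20 tested members called higher and 3 lower. Atf3 rose by log2 2.69 ± 0.45 and Klf6 by 1.29 ± 0.34, while Dusp1, a phosphatase of MAP kinases, had 10.3, 9.17 and 11.5 CPM at 48 h against 23.1, 69.0 and 186 CPM at baseline and Zfp36, an mRNA decay factor, fell (log2 -1.83 ± 0.32). Jun, Junb and Myc were not called, with log2 changes of 0.46 ± 0.42, 0.15 ± 0.58 and -0.85 ± 0.53. None of 16 EGFR and MET pathway ligands and receptors was called higher and 3 were lower; Egfr and Met, the receptors themselves, changed by log2 -0.38 ± 0.30 and -0.12 ± 0.13 without passing (adjusted p = 0.344 and 0.508). Hgfac, the activator of the MET ligand, fell to 102 ± 15.6 CPM at 48 h, against 286 ± 12.5 CPM at baseline. In the IL-6 axis, Stat3 rose by log2 0.89 ± 0.19 and Lifr, the receptor for leukaemia inhibitory factor, fell (log2 -2.24 ± 0.24). Id1, a target of BMP signals, rose by log2 1.50 ± 0.43, and Smad7, the inhibitory SMAD, fell (log2 -0.94 ± 0.28).

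Among genes that write, read or erase DNA methylation, 7 of 18 tested were called higher and 3 lower, with a median near 0 whose sign changed between settings. Dnmt1, the partner of UHRF1 at the fork, had 38.0, 26.7 and 25.6 CPM in the KO 48 h libraries and 10.8, 10.4 and 11.4 CPM in the KO baseline libraries. The groups did not overlap, and the log2 change was 1.47 ± 0.25 (adjusted p = 1.51e-05). Dnmt3a, a de novo methyltransferase, did not pass (log2 -0.16 ± 0.17), and Tet2 and Tet3, which oxidise methylcytosine, fell (log2 -1.08 ± 0.21 and -0.80 ± 0.17). Gadd45b, a stress-induced regulator, rose by log2 2.57 ± 0.52, and Mbd1, a methyl-CpG-binding protein, by 2.00 ± 0.44. Heterochromatin genes leaned upward, with 12 of 21 called higher and 3 lower. Hells, a remodeller needed for DNA methylation, averaged 15.3 ± 9.26 CPM at 48 h and 0.646 ± 0.350 CPM at baseline, and Suv39h1, an H3K9 methyltransferase, 24.9 ± 0.549 and 4.72 ± 0.249 CPM. Lmnb1, a lamin of the nuclear envelope, and Cbx5, heterochromatin protein 1 alpha, rose by log2 2.76 ± 0.29 and 1.17 ± 0.13. Of 29 Polycomb genes 6 were called in each direction, near the shares of all genes (19.0% higher and 17.0% lower). Ezh2, the H3K27 methyltransferase, rose by log2 2.60 ± 0.19 and Ezh1, its paralog, did not pass (log2 -0.19 ± 0.14).

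Of 55 germline genes known to be silenced by DNA methylation, 35 were in the count table and 14 passed the filter. Of these 14, 3 were called higher and 1 lower, beside 19.0% and 17.0% of all genes. Rhox5, a homeobox gene of this class, had 6.27, 5.29 and 2.05 CPM at 48 h against 3.31, 4.26 and 2.88 CPM at baseline and was not called, with WT values between 0 and 0.365 CPM in all 5 WT libraries. Tuba3b, a testis tubulin, had 71 counts in the 3 KO 48 h libraries and none in the 3 KO baseline libraries, which is at least 17.9-fold higher with the floor of 3 counts over the group (adjusted p = 8.33e-05). Its near-identical copy Tuba3a may share reads with it, so the split between both is uncertain. Both are among the 3 germline genes called higher, and Tuba3a was not called by DESeq2 (adjusted p = 0.195). Tuba3b averaged 1.17 CPM in KO libraries at 40 h and 1.08 CPM at 48 h, and 0.081 CPM or less at the other KO times. Tuba3b may have passed the filter through the libraries where it is high, so 3 of 14 may overstate the share. Of 17 oncofetal genes 7 were called higher and none lower; Ly6d had 49.5, 49.2 and 38.1 CPM in the KO 48 h libraries and 0.211, 0.680 and 0.515 CPM in the KO baseline libraries (log2 6.55 ± 0.83), whereas Afp, alpha-fetoprotein, was not called (log2 0.36 ± 0.37, adjusted p = 0.462). Among 28 imprinted genes, 3 were called in each direction, and Igf2 and H19 stayed under 1.3 CPM in all 6 libraries.

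Of 20 acute phase genes tested, 14 were called higher and none lower, with a median log2 change of 1.72, and all 14 rose at least 2-fold. Saa1, serum amyloid A1, had 1769, 1337 and 2763 CPM in the KO 48 h libraries and 25.7, 26.8 and 22.7 CPM in the KO baseline libraries. The third KO 48 h library held the highest value, the groups lay far apart, and the log2 change was 6.29 ± 1.31 (adjusted p = 3.33e-04); Saa1 and its neighbour Saa2 are near-identical, so reads may be split between them. Lcn2, lipocalin 2, averaged 669 ± 229.9 CPM at 48 h and 3.87 ± 1.26 CPM at baseline. Hpx, hemopexin, had 11464, 10004 and 13354 CPM at 48 h against 4259, 3853 and 4047 CPM at baseline, and Hp, haptoglobin, rose by log2 1.48 ± 0.36. Fga, fibrinogen alpha, averaged 8092 ± 1986 CPM at 48 h and 4003 ± 431 CPM at baseline. Of 24 plasma protein genes 4 were called higher and 9 lower. Alb, albumin, had 66619, 70921 and 65126 CPM at 48 h against 62592, 63095 and 68361 CPM at baseline and was not called (log2 0.06 ± 0.22), and Mug1, murinoglobulin 1, and Apoe, apolipoprotein E, fell (log2 -1.60 ± 0.21 and -1.02 ± 0.15). Among 30 complement and coagulation genes 3 were called higher and 14 lower; C8b and F11, coagulation factor XI, fell (log2 -1.12 ± 0.13 and -1.15 ± 0.22).

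Fatty acid synthesis genes were lower at 48 h. Of 23 tested genes of de novo lipogenesis 17 were called lower, 16 of them by at least 2-fold, and 1 higher, beside 17.0% and 19.0% of all genes, with a median log2 change of -1.63. Scd1, stearoyl-CoA desaturase 1, had 908, 402 and 494 CPM in the KO 48 h libraries and 8699.9, 10352 and 5487 CPM in the KO baseline libraries. Among genes whose groups did not overlap, a larger fall in CPM was seen only for Apoe, and the log2 change was -3.77 ± 0.51 (adjusted p = 5.95e-07). Fasn, fatty acid synthase, had 284, 199 and 78.4 CPM at 48 h against 1517, 1659.9 and 1104 CPM at baseline. Thrsp, a lipogenic nuclear protein, averaged 25.3 ± 15.8 CPM at 48 h and 909 ± 308 CPM at baseline (log2 -5.16 ± 0.49), and Acaca and Acacb, the acetyl-CoA carboxylases, fell (log2 -1.40 ± 0.23 and -1.99 ± 0.35). Pklr, the liver pyruvate kinase that feeds the pathway from glucose, had 34.1, 32.4 and 32.8 CPM in the KO 48 h libraries and 428, 355 and 303 CPM in the KO baseline libraries. The KO 48 h libraries hardly differed from each other and lay far below the baseline libraries (log2 -3.45 ± 0.24, adjusted p = 1.52e-13). Lpin1, a phosphatidate phosphatase, fell (log2 -3.62 ± 0.80), and Dgat1, which makes triglyceride, was the member called higher (log2 0.62 ± 0.13).

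Cholesterol synthesis genes were lower too, with 22 of 24 tested genes called lower, 21 by at least 2-fold, and 1 higher (median log2 -1.48). Fdps, the farnesyl diphosphate synthase, had 2.97, 2.82 and 1.74 CPM in the KO 48 h libraries and 20.5, 18.9 and 15.1 CPM in the KO baseline libraries. Every KO 48 h library lay below every KO baseline library, and the log2 change was -2.84 ± 0.43 (adjusted p = 2.79e-06), against -1.85 on the log2(FPKM + 1) scale. Mvd, which also acts upstream of squalene, fell (log2 -2.72 ± 0.44), as did Sqle, squalene epoxidase (log2 -1.57 ± 0.28). Hmgcs1, a synthase early in the pathway, averaged 282 ± 62.3 CPM at 48 h and 922 ± 46.4 CPM at baseline.

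Fatty acid oxidation genes split. Of 32 tested, 12 were called higher and 6 lower, and the sign of the median (0.24) changed when the third KO 48 h library was left out (-0.06). Cyp4a14, an omega-hydroxylase and target of PPAR alpha, had 907, 629 and 1283 CPM in the KO 48 h libraries and 6.12, 65.9 and 100.2 CPM in the KO baseline libraries. The groups did not overlap, and the log2 change was 4.03 ± 0.93 (adjusted p = 9.99e-04). Acot1 and Acot3, acyl-CoA thioesterases, rose by log2 3.46 ± 0.71 and 3.08 ± 0.73, and Acadm, the medium-chain dehydrogenase, by 0.66 ± 0.16. Cyp4a12a, a male-biased member of the same cytochrome family, fell (log2 -1.87 ± 0.40), and Cpt1a, the gate of mitochondrial oxidation, was not called (log2 0.23 ± 0.21). Plin2, the main coat protein of lipid droplets, had 471, 416 and 983 CPM at 48 h against 317, 292 and 293 CPM at baseline; it was called (log2 1.05 ± 0.27) but not without the third KO 48 h library (adjusted p = 0.0861).

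Carbohydrate genes, Pklr among them, changed less evenly, with 4 of 33 called higher and 14 lower in all. Ldha, lactate dehydrogenase A, had 1648, 1826 and 2033 CPM at 48 h against 515, 581 and 569 CPM at baseline, a log2 change of 1.73 ± 0.15 (adjusted p = 1.25e-11). Ppp1r3b, which targets a phosphatase to glycogen, fell (log2 -2.37 ± 0.38). G6pc, the phosphatase that releases glucose, was not called (log2 -0.06 ± 0.48). Of 34 urea cycle and amino acid genes 17 were called lower and 3 higher. Otc, ornithine transcarbamylase, averaged 268 ± 26.0 CPM at 48 h and 576 ± 23.9 CPM at baseline, while Asl, a later enzyme of the cycle, did not pass. Prodh and Tdo2, which degrade proline and tryptophan, fell (log2 -1.55 ± 0.26 and -1.32 ± 0.29), and Kmo, a later step of tryptophan breakdown, rose by log2 0.99 ± 0.15. Oat, ornithine aminotransferase and a gene of pericentral hepatocytes, had 2329.8, 1623 and 1688 CPM at 48 h against 702, 696 and 681 CPM at baseline (log2 1.44 ± 0.20), while Axin2, a Wnt target of the same zone, was not called (adjusted p = 0.922).

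**Figure D3:**
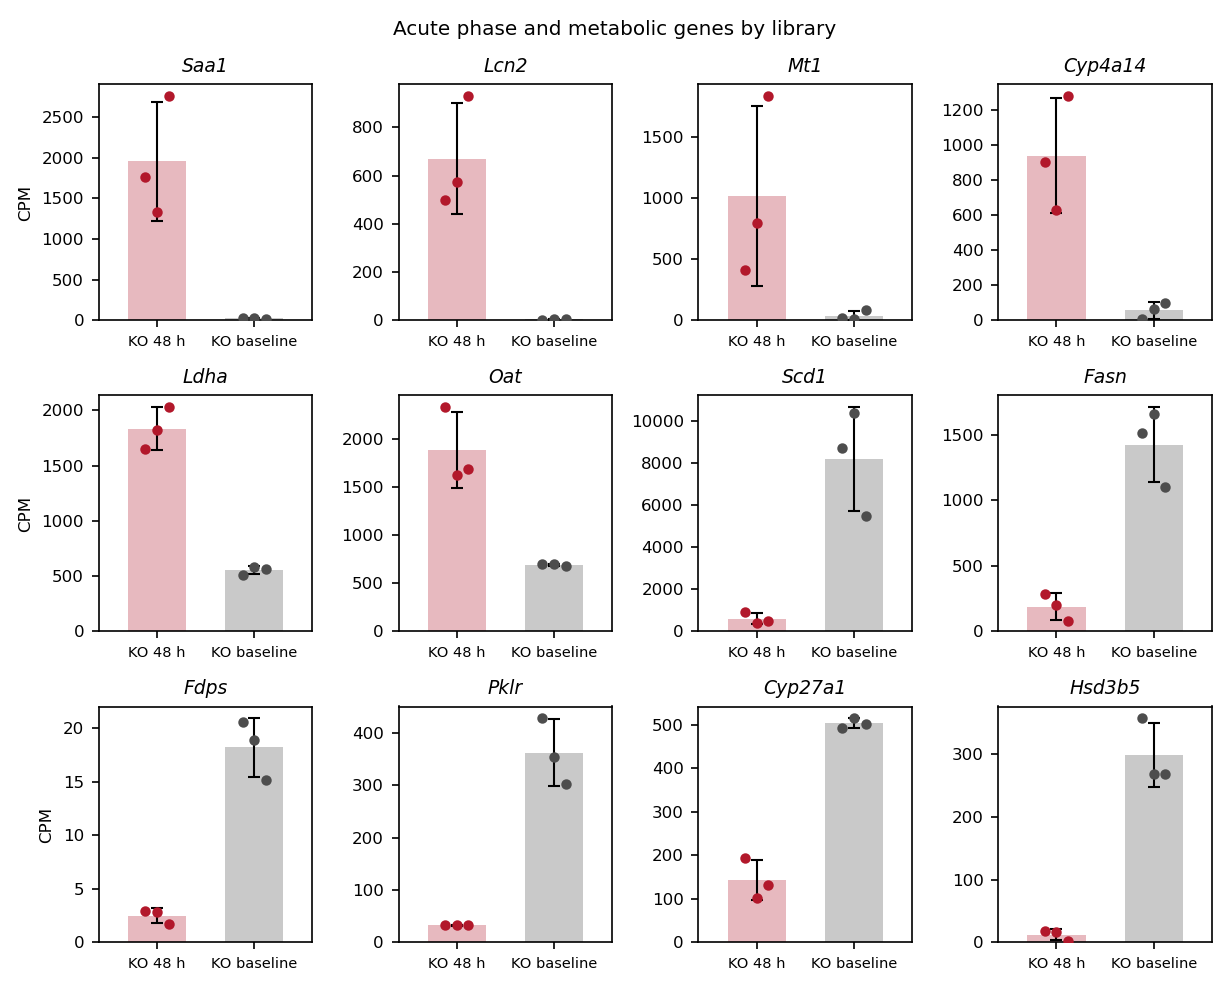
CPM of 12 acute phase and metabolic genes in each of 3 KO 48 h libraries (red) and 3 KO baseline libraries (grey), with bars at the mean and error bars of 1 SD. The 6 genes from Saa1 to Oat are higher in every KO 48 h library and the 6 from Scd1 to Hsd3b5 are lower in every KO 48 h library than in any baseline library.

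Bile acid and drug handling fell in part. Of 24 bile acid genes 13 were called lower and 1 higher (median log2 -1.03). Slc10a1, the main uptake carrier NTCP, had 278, 188 and 290.0 CPM at 48 h against 849.6, 670.2 and 748 CPM at baseline (log2 -1.58 ± 0.15). Cyp27a1 and Cyp7b1 of the acidic pathway fell (log2 -1.82 ± 0.23 and -1.85 ± 0.37), and Cyp7a1, the rate-limiting enzyme of the classic pathway, had 35.5, 29.9 and 23.1 CPM at 48 h against 101, 75.3 and 37.1 CPM at baseline and was not called (adjusted p = 0.239), although it was when the 6 libraries were fitted alone (adjusted p = 0.0357). Among 34 P450 genes of families 1 to 3, 11 were called lower and 4 higher; Cyp2e1 averaged 2392 ± 536 CPM at 48 h and 5839 ± 955 CPM at baseline. Cyp3a11, by contrast, had 7340.5, 1411 and 1229.9 CPM at 48 h, with the first library far above the others, and 1941, 2697 and 2949 CPM at baseline. Of 36 genes for glucuronidation, sulfation and glutathione transfer, 18 were called lower and 6 higher. Sult2a8, a bile acid sulfotransferase, fell (log2 -2.90 ± 0.33), whereas Gsta1, a glutathione transferase, had 55.3, 9.48 and 5.89 CPM at 48 h against 0.985, 0.556 and 1.44 CPM at baseline. The first KO 48 h library set much of the size of that rise, which was log2 4.53 ± 0.90 with it and 2.92 without it.

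Genes of the male liver pattern, which depends on pulsed growth hormone, were lower. Of 21 male-biased genes 13 were called lower, 12 by at least 2-fold, and none higher (median log2 -1.53), and of 14 genes of the growth hormone axis 8 were called lower and none higher. Hsd3b5, a male-specific steroid dehydrogenase, had 18.0, 16.2 and 2.77 CPM in the KO 48 h libraries and 358, 269 and 269 CPM in the KO baseline libraries (log2 -4.59 ± 0.77, adjusted p = 1.84e-05). Ghr, the growth hormone receptor, had 216, 191 and 220.2 CPM at 48 h against 649.6, 624 and 626 CPM at baseline, with little spread in either group. Igfbp3, a carrier of insulin-like growth factor, and Mup20, a major urinary protein, fell (log2 -2.18 ± 0.31 and -1.78 ± 0.44); Mup genes are near-identical and their shares are uncertain. Of 15 female-biased genes 5 were called higher and none lower. Whether the 2 groups match in the sex of the mice was not tested. Among hepatocyte transcription factors 5 of 20 were called lower and none higher, beside 17.0% and 19.0% of all genes. Cebpa had 136, 91.0 and 119 CPM in the KO 48 h libraries and 351, 355 and 355 CPM in the KO baseline libraries (log2 -1.61 ± 0.19). Nr1h4, the bile acid receptor FXR, fell (log2 -1.08 ± 0.14), while Hnf4a did not pass (log2 -0.18 ± 0.16, adjusted p = 0.416).

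Clock genes differed between the groups with a wide spread at baseline. Of 22 tested, 11 were called lower and 2 higher. Dbp, an output factor, had 1.02, 0.441 and 0.973 CPM in the KO 48 h libraries and 84.2, 5.50 and 25.5 CPM in the KO baseline libraries, and Nr1d1, the repressor REV-ERB alpha, had 13.6, 5.25 and 3.33 CPM at 48 h against 106, 58.8 and 66.1 CPM at baseline. Both were lower in every KO 48 h library (log2 -5.55 ± 1.08 and -3.36 ± 0.79). Arntl, the activator BMAL1, which REV-ERB alpha opposes, had 20.9, 30.8 and 23.5 CPM at 48 h against 1.97, 23.5 and 8.70 CPM at baseline. Arntl was not called (log2 1.13 ± 0.70), although it was without the second baseline library (log2 2.19). The baseline library with the lowest Dbp, the second, was also the one with the highest Arntl. Rgs16, a regulator of G protein signalling that cycles in liver, was at 0.0424, 0.132 and 0.512 CPM at 48 h against 124, 15.6 and 121 CPM at baseline, so the second baseline library was again the lowest. The hour of collection was not tested, since the labels give only that of surgery, and for the metabolic genes above that also cycle over the day, time of day and time after surgery cannot be told apart.

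Mt1, metallothionein 1, had 413, 798 and 1833 CPM in the KO 48 h libraries and 22.1, 12.8 and 83.8 CPM in the KO baseline libraries (log2 4.68 ± 1.02), and Mt2 rose by log2 5.46 ± 1.27. Hamp2, a hepcidin copy, fell (log2 -4.92 ± 0.71), while Hamp was not called (log2 -1.03 ± 0.74). Slc40a1, the iron exporter ferroportin, fell (log2 -1.43 ± 0.31). Of 25 targets of the integrated stress response 5 were called higher and 2 lower, beside 19.0% and 17.0% of all genes. Psat1 and Psph, of serine synthesis, rose by log2 2.86 ± 0.45 and 1.36 ± 0.27, and Atf4 itself was not called (log2 -0.11 ± 0.18). The ATF4 composite letters TGATGNAAN, searched on both strands, were in the promoters of 6 of the 22 tested members that matched the table (27.3%) and of 1 of the 7 called (14.3%), beside 2.53% of the genes tested and 3.89% of all genes of the table. Of 26 chaperones and sensors of the endoplasmic reticulum none was called higher and 3 were lower, with Herpud1 lower by the test (log2 -1.41 ± 0.38), and of 25 cytosolic heat shock genes 6 were higher and 1 lower, led by Hsp90aa1 at 430.2 ± 61.0 CPM at 48 h and 131 ± 58.2 CPM at baseline. Ribosome biogenesis and the proteasome moved little, with 9 of 45 and 9 of 32 members called higher and 2 and 0 lower. The shares of all genes were 19.0% higher and 17.0% lower. Of 37 oxidative phosphorylation genes 11 were called lower and 1, Cycs, higher; no called change reached 2-fold. Of 40 interferon-stimulated genes 10 were called lower, among them Irf7 (log2 -1.33 ± 0.30) and Ifit1 (-1.51 ± 0.35), and 1 higher.

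Markers of some other cell types changed as well. In bulk RNA, fewer cells of a type and less RNA per cell cannot be told apart. The summed level of 10 hepatocyte markers was 97930 to 100800 CPM at 48 h and 95220 to 103200 CPM at baseline, so the tissue label matches its defining genes in all 6 libraries. Alb made up most of this sum. Of the 10 markers 3 were called lower and 1 higher, with a median log2 change of -0.27. Sinusoidal endothelial markers summed to 259, 339 and 520.0 CPM at 48 h and 519, 546 and 577 CPM at baseline, and 10 of 25 were called lower and 1 higher. The median log2 change of the endothelial list was -0.47, against -0.23 without the first KO 48 h library and -0.79 without the third. Lyve1, a hyaluronan receptor of these cells, had 1.82, 4.23 and 6.35 CPM at 48 h against 15.3, 14.2 and 11.3 CPM at baseline (log2 -1.73 ± 0.49, adjusted p = 0.00581), and Oit3 and Mrc1 fell (log2 -1.18 ± 0.29 and -1.04 ± 0.29). Kupffer cell markers summed to 168 to 370 CPM at 48 h and 384 to 532 CPM at baseline. Of 15 tested, 4 were called lower and none higher, beside 17.0% and 19.0% of all genes. Clec4f was among the lower calls (log2 -1.17, adjusted p = 0.0395), and its call was lost under 10 of 17 alternatives. For Clec4f and Oit3 the third KO 48 h library was the highest of its group, at 57.2 and 17.3 CPM. The median log2 change of the Kupffer list was -0.87 with that library and -1.45 without it. With other single KO libraries left out it reached -0.59. The part of cell content in the results above was not tested.

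Lymphocyte markers had the lowest median of the marker lists (log2 -1.09). They summed to 9.30 to 12.5 CPM at 48 h and 21.8 to 29.2 CPM at baseline. Of 10 tested, 2 were called lower, beside 17.0% of all genes, and none higher. Another 10, Cd3e and Cd8a among them, had too few counts to be tested. Of 26 stellate cell and collagen markers 1 was called higher and 2 lower, and of 11 cholangiocyte and progenitor markers 5 were called higher and none lower. The median log2 change of the cholangiocyte list was -0.19, and it ran from -0.25 to 0.69 when single KO libraries were left out. Among 14 monocyte and neutrophil markers 3 were called higher and 1 lower, beside 19.0% and 17.0% of all genes. Prtn3, proteinase 3, had 25.5, 38.1 and 41.0 CPM at 48 h against 1.27, 3.65 and 0.206 CPM at baseline, while Mpo and Elane, granule genes of the same cells, did not reach the filter. Of 8 erythroid markers 2 were called lower, Alas2 and Klf1 (log2 -1.35 ± 0.24 and -3.11 ± 0.35), and none higher. The erythroid list median was 0.27, and it ran from -0.013 to 0.455 when single KO libraries were left out. Of 15 exocrine pancreas or gut markers 5 were tested, and 2 were called higher and 1 lower.

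**Figure D4:**
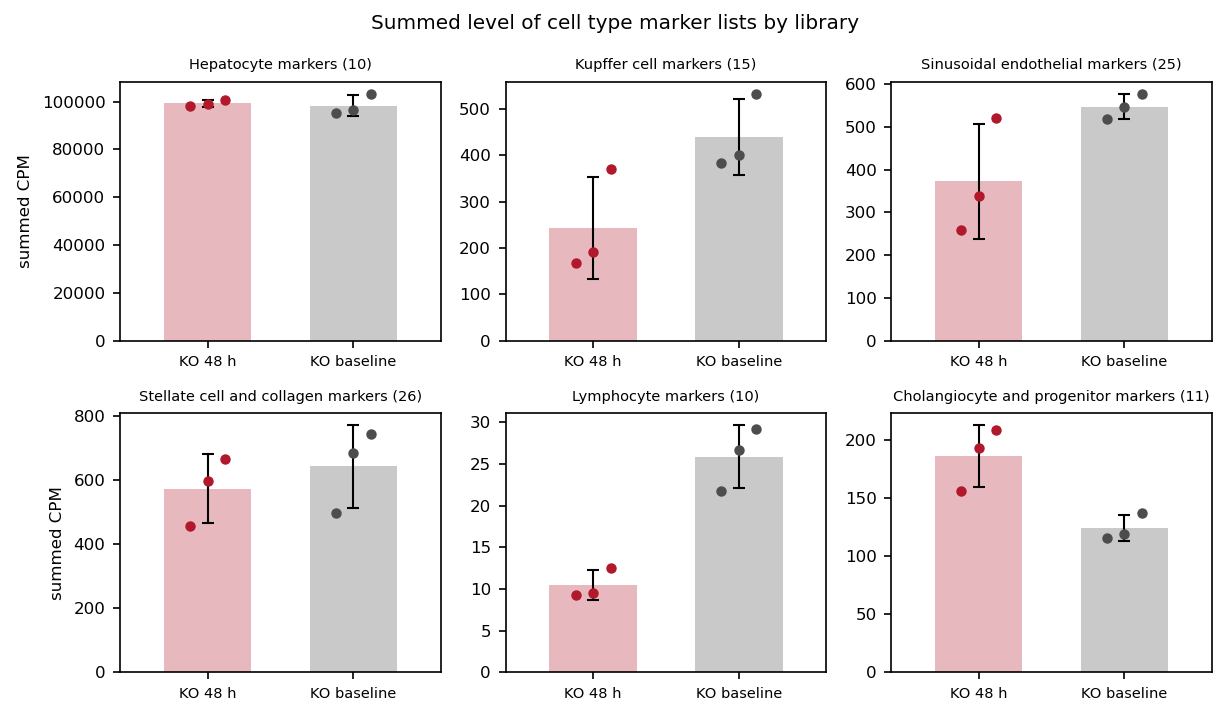
Summed CPM of the tested members (number in brackets) of 6 marker lists in 3 KO 48 h libraries (red) and 3 KO baseline libraries (grey), ordered by level within a group, with bars at the mean and error bars of 1 SD. Hepatocyte sums overlap, lymphocyte sums at 48 h of 9.30 to 12.5 CPM lie below the baseline sums, and the highest endothelial sum at 48 h, 520.0 CPM, reaches the baseline range.

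The change from baseline to 48 h was then compared with that in WT livers. WT livers gave 4373 calls (31.0%), 2205 higher (15.6%) and 2168 lower (15.4%); 3288 genes were called in the same direction in both genotypes, which is 64.8% of the KO calls and 75.2% of the WT calls, and 1 gene, Utp20, in opposite directions. The KO call of Utp20 (log2 -0.40 ± 0.14, adjusted p = 0.0212) was lost under 8 alternatives, among them library totals alone (adjusted p = 0.223) and leaving out the second KO baseline library (0.384). No gene passed the test of the difference between both changes by edgeR (0.00%), with 869 genes (6.17%) at an unadjusted p under 0.05; DESeq2 called 2 predicted genes, Gm42503 and Gm15287, and limma on log2(FPKM + 1) called 5 genes, Tuba3a, Tuba3b, Amn, Rbp7 and Gm8334. Predicted genes aside, the smallest p by edgeR was that of Ptpru, a receptor phosphatase, at 1.06, 0.661 and 0.922 CPM in KO 48 h and 0.281, 0.618 and 0.669 CPM in KO baseline libraries, against 1.38 and 1.57 CPM in WT 48 h and 0, 0.143 and 0 CPM in WT baseline libraries (difference of log2 changes -4.00 ± 0.86, adjusted p = 0.335). Among mitotic cyclins and kinases the medians were log2 7.12 in KO and 6.99 in WT livers, and none of the 22 had a difference at an unadjusted p under 0.05. For licensing genes the medians were 3.29 in KO and 3.02 in WT livers, again with 0 of 20.

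Of the 58 lists, some held more such differences than the 6.17% of all genes, without any gene passing. Those given here had the largest shares. A threshold of 0.05 would alone give a share not far below 6.17% if no change differed. Members of a list can move together within a library, so these counts are no test of a difference between genotypes. The WT livers had only 2 libraries at 48 h. Over all genes, the 869 such differences became 533 without KO 48 h replicate 1 and 1282 without WT baseline replicate 2. Of 25 endothelial markers 10 had such a difference, all with a lower change in KO livers. The median log2 change of that list was -0.47 in KO and 0.18 in WT livers. Lyve1 changed by log2 -1.73 ± 0.49 in KO and by 0.18 in WT livers (difference -1.90 ± 0.72, unadjusted p = 0.0125, adjusted p = 0.794). Of 36 glucuronidation, sulfation and glutathione transfer genes 12 did, all with a higher change in KO livers, with medians of -0.34 in KO and -0.79 in WT livers. Gstp2 stood at 20.7, 22.8 and 9.68 CPM in KO 48 h and 6.12, 5.13 and 6.69 CPM in KO baseline libraries, against 1.04 and 1.57 CPM in WT 48 h and 2.92, 1.07 and 0.840 CPM in WT baseline libraries; reads may be split between it and its near-identical neighbour Gstp1, and its KO change was not called on the FPKM scale (adjusted p = 0.169). Of 32 fatty acid oxidation genes 7 did, all higher in KO livers, and of 26 stellate cell markers 6 did, all lower in KO livers. Acute phase genes had a median log2 change of 1.72 in KO and 2.56 in WT livers, and 1 of 20 had a difference at an unadjusted p under 0.05. A p that misses the threshold does not show that the changes were alike, and for Ccnb1 the difference was log2 0.37 ± 1.52.

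**Figure D5:**
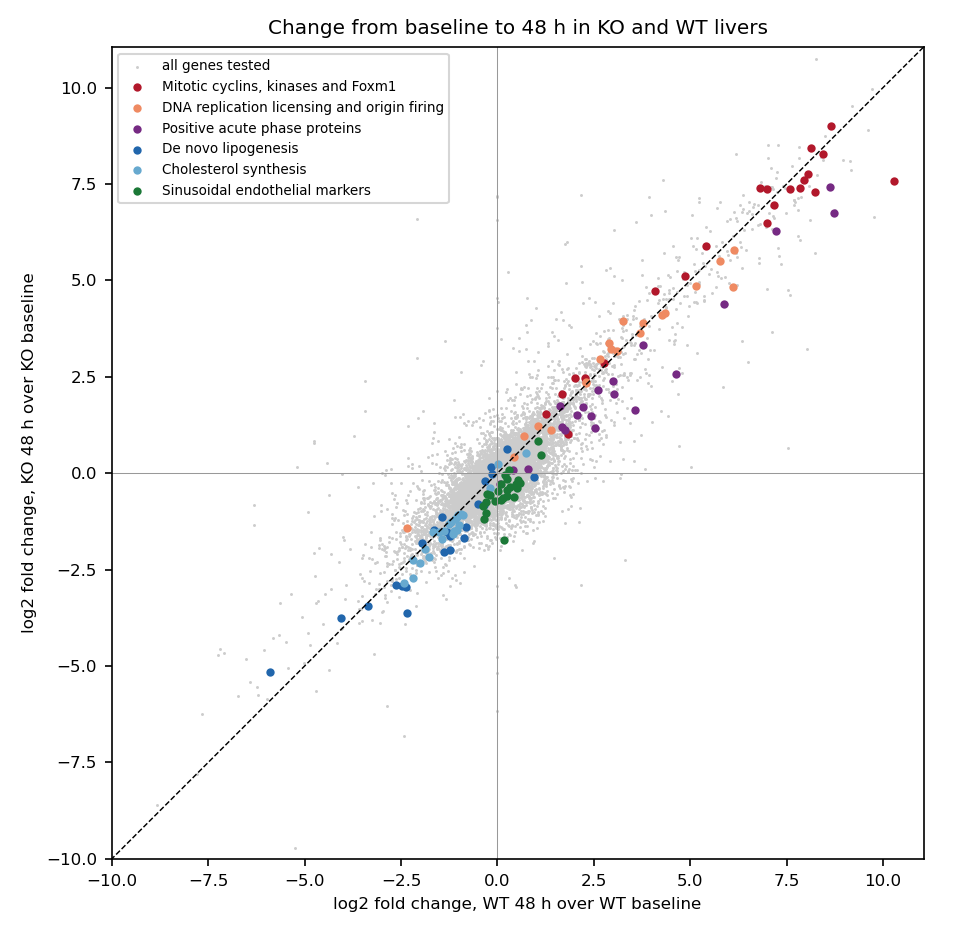
Log2 fold change from baseline to 48 h in KO livers (vertical axis) against that in WT livers (horizontal axis) for all 14090 genes tested (grey) and for members of 6 lists (colours); the dashed line marks equal change. Mitotic and licensing genes other than Mcm10 lie near the line at the upper right, most lipid synthesis genes near it at the lower left, and all 25 endothelial markers lie below it.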

How the data were processed

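Poly(A) RNA of mouse liver was sequenced as 100 bp paired-end reads, per the labels' protocols. The authors deposited whole-number read counts per gene and, in a second table, FPKM values; TopHat2 2.1.0, HTSeq and Cufflinks 2.2.1 are among the tools in the submitters' processing notes, with the build mm10. Here the counts of all 45 libraries were fitted as 16 group means with edgeR 4.0.16 (quasi-likelihood, robust, TMM scaling), after a filter on low counts that kept 14090 of 19966 genes. The difference between the changes of both genotypes was an interaction contrast in the same fit, and for Uhrf1 the KO 48 h level was also contrasted directly with the WT 48 h level. Calls were made at an adjusted p under 0.05 (Benjamini-Hochberg over all genes tested), and the code was tested on simulated data. DESeq2 1.42.0, limma 3.58.1 on the log2 scale of the FPKM values, other scalings, no filter and leaving out each library were alternatives. A fold change on log2(FPKM + 1) understates the change of low genes. Correlations of deviations between same-numbered KO libraries were 0.015, 0.067 and 0.108, and those between differently numbered ones -0.102 to 0.045. These values do not settle whether the numbers pair libraries. The labels do not say that they do, so the numbers were not used as pairs in the main fit.

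Genes were named by rule: Uhrf1, the 15 largest fold changes and 8 largest CPM differences in each direction, preset key members of 58 lists, the 3 largest called members of each list and direction, and the 10 smallest p-values of the difference between genotypes, without predicted genes. Gm42503, Gm15287, Gm8334 and any other gene listed for an alternative test were named after their values were seen. The members and lists were chosen with earlier results of these data known. Library totals of 13.46 to 20.68 M counts in the 6 libraries set the precision of low genes; intervals and floors cover counting error only, at 95%. Some single genes are not reported here.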

Additional observations from a re-analysis of the deposited data

How the results depend on the processing

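The 5072 genes called between KO 48 h and KO baseline became 5042 to 5154 with other scalings or DESeq2, 4799 without the filter, 5412 without the 96 h libraries and 4140 to 4613 with 1 library left out. The 2394 lower calls became 1544 with library totals alone and 1298, 1223 and 1345 with limma on log2(FPKM + 1), on log2(FPKM + 0.1) and with no filter, with medians of all genes of 0.13, 0.12, 0.17 and 0.001 in these 4 settings; leaving out 1 library gave 1859 to 2127. The difference between genotypes, with 0 calls by edgeR, gave 2 by DESeq2 and 5, 2 and 21 by the 3 limma settings, and 0 to 3 with 1 library left out; the highest, 3, came without KO 48 h replicate 1. Whether replicate numbers pair the libraries is not known. The 6 libraries alone gave 4574 calls without the replicate block and 4444 with it. The difference gave 0 calls both ways, with 728 and 494 genes at an unadjusted p under 0.05. Of 58 list medians 43 kept their sign under all scalings and with each KO library left out, and 15 did not. No direction is read from those 15 medians. The cause of these changes was not tested. Depth limits genes near 0 at baseline, where 1 count decides the fold.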

Other observations

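Other KO libraries of the series place the 48 h values in time, given as means of 3 libraries. Ccnb1 had a mean of 0.245 CPM at baseline, against 3.95 CPM at 30 h, 56.4 CPM at 40 h, 128 CPM at 48 h and 6.64 CPM at 96 h, so 48 h was its highest sampled time. For Mcm5 the highest sampled mean, 138 CPM, was at 30 h, with 110.0 CPM at 40 h, 63.0 CPM at 48 h and 5.39 CPM at 96 h. Uhrf1 also peaked among sampled KO times at 30 h (12.9 CPM, against 4.98 CPM at 48 h). The mean of Saa1 was highest at 24 h (10190 CPM), and 1956 CPM was left at 48 h. Scd1 averaged 8180 CPM at baseline, then 601 CPM at 48 h, 3590 CPM at 96 h and 7849 CPM at 4 weeks. Dbp averaged 21.3 CPM at 30 h, 1.38 CPM at 40 h and 0.810 CPM at 48 h, and Arntl 2.89, 20.2 and 25.1 CPM at those times. These values were not tested.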
